A study of Mus musculus with 32 samples.

Results

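Arntl, Clock and Npas2 encode the activating arm of the circadian clock. They were taken as the entries of the expression table whose gene symbol is one of these names, and 3 of 16634 entries matched, 1 for each gene. RNA was sequenced from whole gastrocnemius, the large calf muscle, of mice 10 weeks old and of mixed background. Mutant mice carried Sf1-Cre with loxP sites in both Sirt1 alleles (Sf1-Cre; Sirt1loxP/loxP), so that the NAD-dependent deacetylase SIRT1 is lost in cells where SF1 drives the recombinase. Within the brain these are chiefly neurons of the ventromedial hypothalamus, and SF1 is not confined to the brain. Control mice carried Sirt1loxP/loxP with no Cre per the series description and are named only as controls in the sample labels, so an effect of the Cre transgene and one of the deletion cannot be told apart. Muscle was taken at Zeitgeber times (ZT, hours after lights on) 0, 6, 12 and 18, with 4 mutant and 4 control libraries at each time, 32 in all. The comparisons ask whether the activators keep their daily course in muscle when SIRT1 is deleted in SF1 cells.

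Values are FPKM as deposited, fragments scaled by transcript length and library total. Absolute depth is unknown. Steps in the low values gave relative depths between 0.808 and 1.39, with means of 1.03 ± 0.159 in mutants and 0.987 ± 0.147 in controls (SD, n = 16 each). Sirt1 itself was at 5.20 ± 0.731 FPKM in mutant muscle and 5.47 ± 0.506 FPKM in control muscle (SD, n = 16 each), with a log2 difference of -0.07 (limma adjusted p = 0.77). SF1 cells, in the brain or elsewhere, were not measured, so this value does not check the deletion. The summed level of 8 fast fibre genes lay between 54048 and 108609 FPKM in mutants and between 72231 and 118691 FPKM in controls, and none of these genes was at 0 in every library. The sum of 8 slow fibre genes lay between 620 and 2170 FPKM in mutants (median 1243) and between 895 and 2502 FPKM in controls (median 1594). The mean of each of the 8 was lower in mutants (median -0.32 over all times and -0.74 at ZT12 on the log2 scale, against 0.00 and 0.06 over all genes). Over all times 0 of the 8 were called (limma), and 5 had an unadjusted p under 0.05, against 776 of all 11975 genes. The sum of 8 adipocyte genes lay between 466 and 3705 FPKM in mutants (median 1329) and between 535 and 2175 FPKM in controls (median 1038), and all 8 had higher means in mutants (median 0.45, 0 called with limma, 1 at an unadjusted p under 0.05). The sum of 9 lymphocyte genes varied most, from 2.12 to 66 FPKM in mutants (median 32.3) and from 1.72 to 80.9 FPKM in controls (median 3.63). Endothelial, macrophage and fibroblast sums had medians of 173, 194 and 1105 FPKM in mutants and 173, 156 and 1017 FPKM in controls. The part of cell composition in the results was not tested. In whole tissue, fewer cells of a type and less RNA per cell cannot be told apart.

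BMAL1, the product of Arntl, pairs with CLOCK or its close relative NPAS2, and the pair binds E-boxes to switch on the Per and Cry repressor genes, the REV-ERB genes Nr1d1 and Nr1d2 and output factors such as Dbp. PER and CRY proteins then inhibit the pair. REV-ERB proteins repress Arntl and ROR proteins activate it through ROR elements, which places Arntl RNA opposite in phase to the genes its product activates. In skeletal muscle BMAL1 is known to be needed for the rhythm of clock outputs and for normal glucose use.

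The promoters are shown because the 3 genes ran together through the day and because ROR elements near the Arntl start site are the textbook entry point of the loop. RefSeq windows (GRCm38.p6, the assembly of mm10) of 250 bases before to 50 after a transcription start were found for all 3 genes, 2 for Arntl, 3 for Clock and 1 for Npas2. One window per gene is printed in the direction of transcription, and capitals mark letters that match a searched motif. The Arntl window is chr7:113207261-113207560 (plus strand), the Clock window chr5:76304743-76305042 (minus strand) and the Npas2 window chr1:39194022-39194321 (plus strand).
Arntl: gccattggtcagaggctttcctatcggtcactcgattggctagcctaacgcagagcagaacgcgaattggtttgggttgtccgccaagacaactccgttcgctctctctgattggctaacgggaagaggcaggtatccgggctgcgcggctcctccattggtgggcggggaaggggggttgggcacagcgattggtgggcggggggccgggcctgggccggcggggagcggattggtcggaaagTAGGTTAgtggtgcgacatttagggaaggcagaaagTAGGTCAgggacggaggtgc
Clock: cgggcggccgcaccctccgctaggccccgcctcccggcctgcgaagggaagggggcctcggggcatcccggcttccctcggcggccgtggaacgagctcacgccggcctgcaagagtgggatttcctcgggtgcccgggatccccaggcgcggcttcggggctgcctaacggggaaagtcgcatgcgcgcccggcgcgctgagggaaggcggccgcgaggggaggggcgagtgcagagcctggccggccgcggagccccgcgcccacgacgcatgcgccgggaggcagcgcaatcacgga
Npas2: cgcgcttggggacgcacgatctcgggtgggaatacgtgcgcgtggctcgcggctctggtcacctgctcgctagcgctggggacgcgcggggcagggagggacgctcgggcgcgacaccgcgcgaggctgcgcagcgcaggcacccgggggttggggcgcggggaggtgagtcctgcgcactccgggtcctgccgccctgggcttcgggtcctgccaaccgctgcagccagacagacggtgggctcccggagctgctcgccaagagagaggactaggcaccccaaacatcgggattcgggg

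Motifs were searched on both strands. The ROR element core TAGGTCA was found once in the printed Arntl window, its first letter at position 31 counted from the start site. The variant TAGGTTA, which was added after the promoters had been read, lay at position -6 of that window, and the same site was at position 41 from the start of the other Arntl window. These matches do not overlap each other. TAGGTCA was present in 2.61% and TAGGTTA in 1.44% of all 32851 RefSeq windows of this length. The other ROR core TGGGTCA (3.98% of windows), the E-box CACGTG (7.15%), the E-box variant CACGTT (4.68%) and the D-box TTATGTAA (0.938%) were not among the letters of any of the 6 windows, and neither ROR form was among those of the Clock and Npas2 windows. The matches describe letters only. The printed Clock window was 76.3% G or C, the Npas2 window 72.7% and the Arntl window 61.7%.

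Arntl (XLOC_019094, chr7:113207465-113314126, plus strand) had the widest daily range in FPKM of the 3 genes. In mutants it was at 12.7, 8.09, 9.43 and 15.0 FPKM at ZT0, at 17.6, 15.8, 16 and 17.4 FPKM at ZT6, at 2.60, 4.72, 3.29 and 3.76 FPKM at ZT12 and at 1.48, 1.51, 1.52 and 1.13 FPKM at ZT18. In controls it was at 9.37, 13.5, 11.2 and 14.4 FPKM at ZT0, at 15.1, 17.4, 13.8 and 14.7 FPKM at ZT6, at 5.09, 2.88, 5.02 and 5.59 FPKM at ZT12 and at 8.84, 3.53, 1.12 and 1.51 FPKM at ZT18. Levels were thus high in the light phase and low in the dark phase in both genotypes, and the ranges of mutants and controls overlapped at every time. The exception to the low night values was 1 control library at ZT18, which held 8.84 FPKM. Means and SDs (n = 4 each) at ZT6 were 16.7 ± 0.902 FPKM in mutants and 15.2 ± 1.52 FPKM in controls, and at ZT18 they were 1.41 ± 0.185 FPKM in mutants and 3.75 ± 3.55 FPKM in controls. The mean at ZT6 was 11.8 times that at ZT18 in mutants and 4.06 times in controls, and 7.42 times in controls without the library at 8.84 FPKM.

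**Figure D1:**
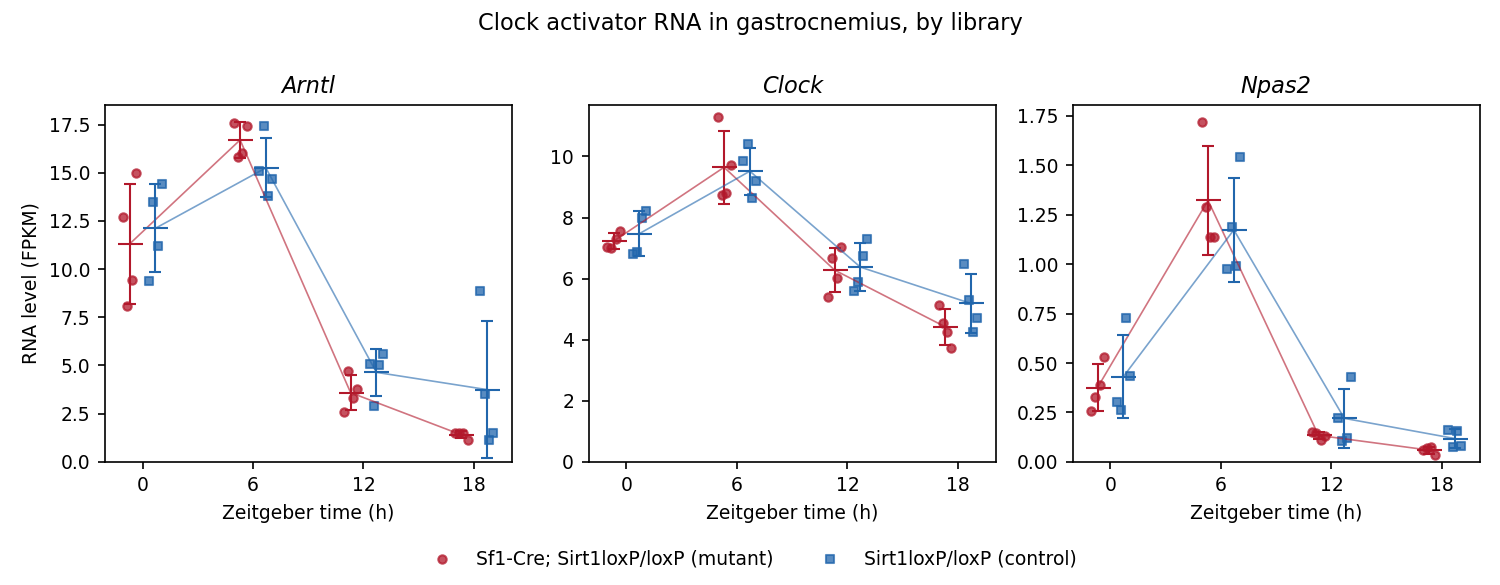
RNA level in FPKM (linear axis, one scale per gene) of Arntl, Clock and Npas2 against Zeitgeber time in hours, with mutants (circles) left of controls (squares). Points are libraries, bars are means ± SD of 4 libraries and lines join the means; all 3 genes are highest at ZT6, and 1 control library at ZT18 lies apart at 8.84 FPKM of Arntl.

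Clock (XLOC_016571), whose product is the partner of BMAL1 and has acetyltransferase activity, followed the same order of times over a narrower range. Mutant libraries held 7.04, 7.01, 7.30 and 7.55 FPKM at ZT0, 11.3, 8.74, 8.81 and 9.73 FPKM at ZT6, 5.39, 6.66, 6.02 and 7.05 FPKM at ZT12 and 5.14, 4.56, 4.26 and 3.74 FPKM at ZT18. Control libraries held 6.80, 6.87, 7.99 and 8.23 FPKM at ZT0, 9.85, 10.4, 8.63 and 9.19 FPKM at ZT6, 5.58, 5.88, 6.75 and 7.30 FPKM at ZT12 and 6.49, 5.31, 4.25 and 4.70 FPKM at ZT18. No library was below 3.74 FPKM, so Clock RNA was present at all times. Its ZT6 mean was 2.18 times its ZT18 mean in mutants (9.65 ± 1.20 and 4.43 ± 0.584 FPKM) and 1.83 times in controls (9.51 ± 0.762 and 5.19 ± 0.975 FPKM; SD, n = 4 each). The table gives the Clock entry the interval chr5:76183880-76469519, wider than the gene in GENCODE (chr5:76209868-76304792, minus strand), and gives the same interval to the entry of Tmem165, a neighbour on the plus strand that encodes a Golgi membrane protein. The library kit keeps strand, but whether the counting used it is not stated in the sources used here. Tmem165 itself had 24 h amplitudes of 0.08 in mutants and 0.17 in controls (log2, limma adjusted p = 0.733 and 0.144).

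Npas2 (XLOC_000081, chr1:39194272-39363240, plus strand), whose product can take the place of CLOCK, had low levels and the steepest daily change in proportion. In mutants it was at 0.256, 0.330, 0.388 and 0.531 FPKM at ZT0, at 1.72, 1.29, 1.14 and 1.14 FPKM at ZT6, at 0.152, 0.145, 0.109 and 0.130 FPKM at ZT12 and at 0.0580, 0.0693, 0.0748 and 0.0360 FPKM at ZT18. In controls it was at 0.301, 0.261, 0.727 and 0.435 FPKM at ZT0, at 0.975, 1.19, 0.989 and 1.54 FPKM at ZT6, at 0.223, 0.106, 0.121 and 0.431 FPKM at ZT12 and at 0.162, 0.0732, 0.155 and 0.0824 FPKM at ZT18. No library was at 0, and every ZT6 library was above every library of the other times. The mean at ZT6 was 22.2 times that at ZT18 in mutants (1.32 ± 0.276 and 0.0595 ± 0.0172 FPKM) and 9.92 times in controls (1.17 ± 0.263 and 0.118 ± 0.0469 FPKM; SD, n = 4 each). Per length, Npas2 stayed at a small part of the Clock level throughout: the highest ratio of their FPKM was 0.152 among mutant and 0.168 among control libraries, both at ZT6, and the lowest was 0.00961 among mutant and 0.0138 among control libraries, both at ZT18.

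All 3 genes had the same order of mean levels, ZT6 over ZT0 over ZT12 over ZT18, in both genotypes, but not every step exceeded the spread between libraries. Steps were tested by exact permutation of 4 against 4 libraries (2-sided, smallest possible p = 0.0286), adjusted over the 18 steps. In mutants, Arntl and Clock were higher at ZT6 than at ZT0 with no overlap of libraries (exact p = 0.0286, adjusted p = 0.0468 each), a pattern that 2.03% of the 11975 genes tested showed. Npas2 did not overlap between these times either, in both genotypes, and is given here with no p, since it is among the genes tested only through libraries of ZT6. Its steps between these times are nonetheless among the 18 adjusted over, at the smallest possible p. Each adjusted p of 0.0468 would not be under 0.05 without them. No step is therefore claimed to pass, and the lack of overlap is described. Arntl and Npas2 were also higher at ZT0 than at ZT12 with no overlap (exact test, adjusted p = 0.0468, background 2.15% of genes). Libraries of Clock overlapped there (exact p = 0.0857, adjusted p = 0.119). All 3 were lower at ZT18 than at ZT12 in mutants (exact test, adjusted p = 0.0468; background 3.66%). In controls, Clock was lower at ZT0 than at ZT6 (exact test, adjusted p = 0.0468; background 8.38%) and Arntl did not pass (p = 0.0571, adjusted p = 0.0857). Arntl was the member with no overlap between ZT0 and ZT12 in controls (exact test, adjusted p = 0.0468, background 11.6%), with exact p = 0.114 for Clock and Npas2. Between ZT12 and ZT18 none of them passed in controls (exact p = 0.657 for Arntl, 0.114 for Clock and 0.286 for Npas2; background 1.63%), so in controls the night levels cannot be ranked beyond their spread.

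Since both partners form the working pair, their levels per length were set against each other in each library. The ratio of Arntl to Clock FPKM was above 1 in every library of ZT0 and ZT6, from 1.15 to 1.99 at ZT0 and from 1.55 to 1.82 at ZT6 in mutants, and from 1.38 to 1.97 at ZT0 and from 1.53 to 1.67 at ZT6 in controls. It was below 1 in every mutant library at ZT12 (0.483 to 0.709) and ZT18 (0.288 to 0.358) and in every control library at ZT12 (0.490 to 0.913). At ZT18 the control libraries ran from 0.265 to 1.36, and the library at 1.36 was the one with 8.84 FPKM of Arntl. By these FPKM, Arntl lay above Clock by day and below it by night, with that 1 library as the exception. The place of 1 on this scale depends on the Clock entry, whose interval is shared with Tmem165 and may hold reads of both genes.

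**Figure D2:**
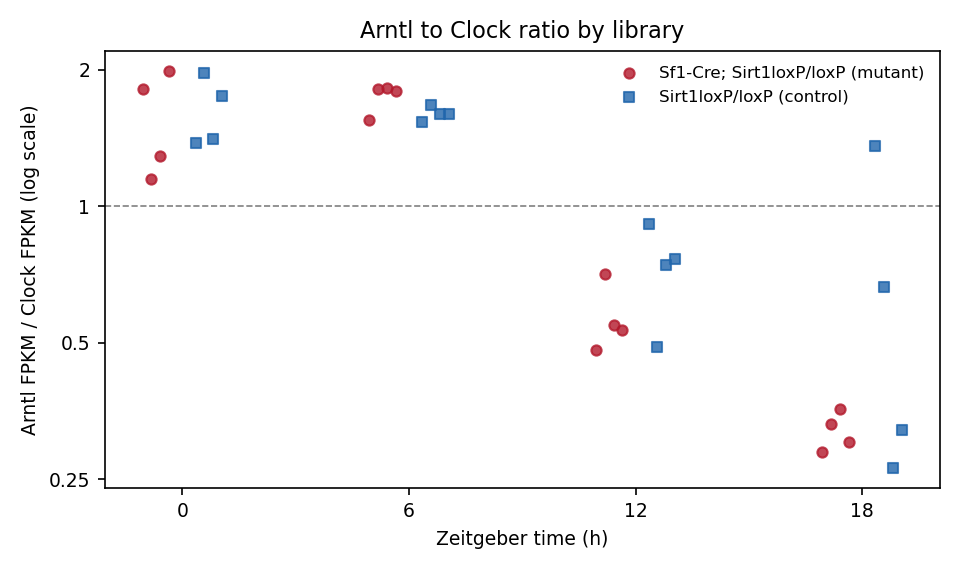
Ratio of Arntl to Clock FPKM per library (log axis) against Zeitgeber time in hours, mutants (circles) left of controls (squares), with a dashed line at 1. All libraries of ZT0 and ZT6 are above 1 and all others below it, apart from 1 control library of ZT18 at 1.36.

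Arntl and Clock were called rhythmic over 24 h in both genotypes, and so was Npas2 in a fit without a filter on low values. The cosine and sine of a 24 h cycle were tested jointly (F test) with limma on log2(FPKM + 1), over all genes. Peaks were fitted from ZT0, ZT6, ZT12 and ZT18 only, with SEs from 0.338 to 0.496 h for the activators. In mutants the fitted peak of Arntl was at 4.26 h with an amplitude from mean to peak of 1.60 (log2 scale, SE 0.142; limma adjusted p = 9.49e-08), and in controls at 3.93 h with 1.19 (SE 0.142; adjusted p = 1.89e-05). Clock peaked at 5.30 h in mutants with an amplitude of 0.49 (SE 0.052; adjusted p = 1.5e-06) and at 5.03 h in controls with 0.40 (SE 0.052; adjusted p = 6.85e-05). Npas2 peaked at 5.08 h in mutants with 0.58 (SE 0.0532) and at 5.11 h in controls with 0.49 (SE 0.0532). It passed the filter (1 FPKM in 4 libraries) only through 6 libraries of ZT6, 4 mutant and 2 control, so that a gene of its level had to differ between times to be tested. With every gene above 0 in at least 1 library tested instead, limma adjusted p for Npas2 was 4.41e-08 in mutants and 1.84e-06 in controls. Of all 11975 genes tested, 3.92% were called rhythmic in mutants and 5.55% in controls. By p, Arntl and Clock ranked at places 6 and 17 of all genes in mutants and at 15 and 25 in controls.

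The pseudocount flattens the amplitude of Npas2: with 0.1 in place of 1 its amplitude was 1.65 in mutants and 1.33 in controls. Samples were sequenced in 4 pools of 8, and which samples shared a pool is not given. An effect of a pool or of a harvest day on the rhythm was not tested.

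Most of the genes known to be driven by the activators and called rhythmic peaked in the dark phase, with Nr1d1 and Cry1 apart. Of 16 E-box repressors and outputs, 12 were called rhythmic in mutants and 11 in controls, against 3.92% and 5.55% of all genes. Median amplitudes over the list were 0.64 in mutants and 0.50 in controls, against 0.09 in mutants and 0.10 in controls over all genes. Dbp, an activator of output genes, peaked at 15.8 h in mutants with an amplitude of 2.13 and at 15.6 h in controls with 1.55. Per2, a repressor of the pair, peaked at 17.1 h with 1.34 in mutants and at 17.4 h with 1.17 in controls. Nr1d1, which encodes the repressor of Arntl REV-ERBα, came earlier, at 10.6 h with 1.44 in mutants and at 10.3 h with 0.96 in controls. Cry1, the repressor with the latest known phase, peaked at 1.55 h with 0.41 in mutants and at 1.38 h with 0.48 in controls. Per1, Per3, Ciart, Nr1d2, Hlf, Usp2 and Wee1 were rhythmic in both genotypes, with peaks between 14.6 and 18.3 h. Tef, an output factor related to Dbp, was called in mutants (amplitude 0.46, adjusted p = 0.000501) and not in controls (0.24, adjusted p = 0.0923), and Cry2, Bhlhe40, Bhlhe41 and Nampt were not called in either.

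**Figure D3:**
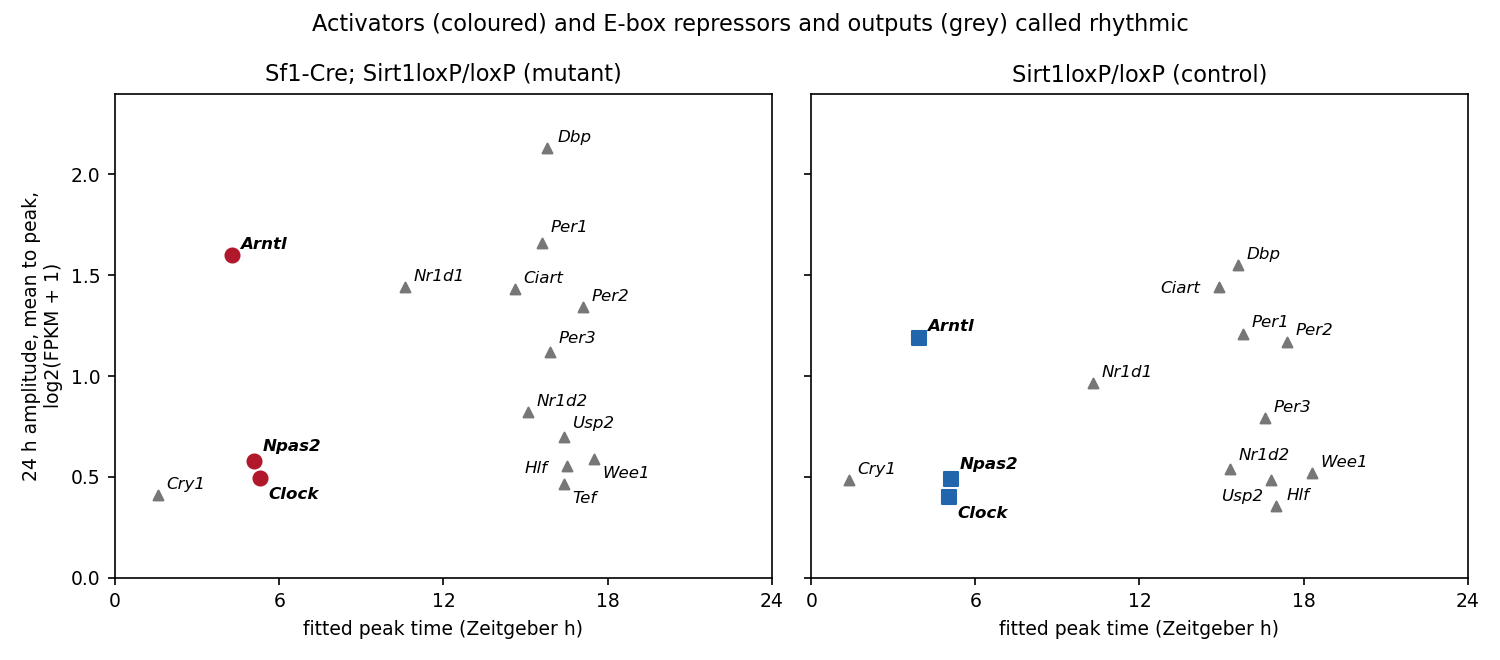
Fitted peak time (Zeitgeber hours) against 24 h amplitude (log2 of FPKM + 1, mean to peak) for the activators (large coloured symbols) and the E-box repressors and outputs called rhythmic (grey triangles), mutants left and controls right. The activators lie between 3.93 and 5.30 h in both panels, and most of the other genes between 14.6 and 18.3 h.

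No difference in level between mutants and controls passed the test for any activator. Over all times, Arntl averaged 8.26 ± 6.49 FPKM in mutants and 8.94 ± 5.45 FPKM in controls, Clock 6.89 ± 2.06 FPKM in mutants and 7.13 ± 1.80 FPKM in controls, and Npas2 0.473 ± 0.538 FPKM in mutants and 0.485 ± 0.457 FPKM in controls (SD, n = 16 each, which holds the daily change). The log2 difference of mutants minus controls was -0.24 for Arntl (95% interval -0.54 to 0.04, limma adjusted p = 0.762), -0.06 for Clock (-0.16 to 0.05, adjusted p = 0.831) and -0.03 for Npas2 (-0.14 to 0.08, adjusted p = 0.911). Of all genes, 0.0251% were called in this comparison. At single times the share of genes called was 0.0167% for each of ZT0, ZT6 and ZT18 and 0.0251% for ZT12, and no activator was among them. These shares move with single libraries: 447 genes were called at ZT12 without mutant ZT12 library 3, 262 without mutant ZT0 library 2 and 96 without mutant ZT0 library 3, and array weights called 232 at ZT6, with no activator called in any of these fits.

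The largest single difference was that of Arntl at ZT18, -0.71 (95% interval -1.29 to -0.13), which had an unadjusted p of 0.0189 and a limma adjusted p of 1. It rested on 1 library. Without the control library at 8.84 FPKM it was -0.27, and without the control library at 1.12 FPKM it was -1.0. At the other times the Arntl difference was -0.11 (ZT0), 0.13 (ZT6) and -0.29 (ZT12), and the smallest adjusted p among the other 11 differences at single times was 0.61. Clock differed by -0.18 at ZT18 (95% interval -0.39 to 0.03, adjusted p = 1) and by at most 0.04 in either direction at the other times. The intervals of Npas2 at single times ran from -0.32 to 0.31 and each held 0. Whether the genotype difference changed with time was tested with an F test of 3 contrasts, which called 0% of genes (0 of 11975 with limma, 1684 at an unadjusted p under 0.05, and 93, 33 and 21 called without mutant ZT0 library 3, ZT12 library 3 and ZT0 library 2). Adjusted p was 0.563 for Arntl, 0.769 for Clock and 0.775 for Npas2.

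**Figure D4:**
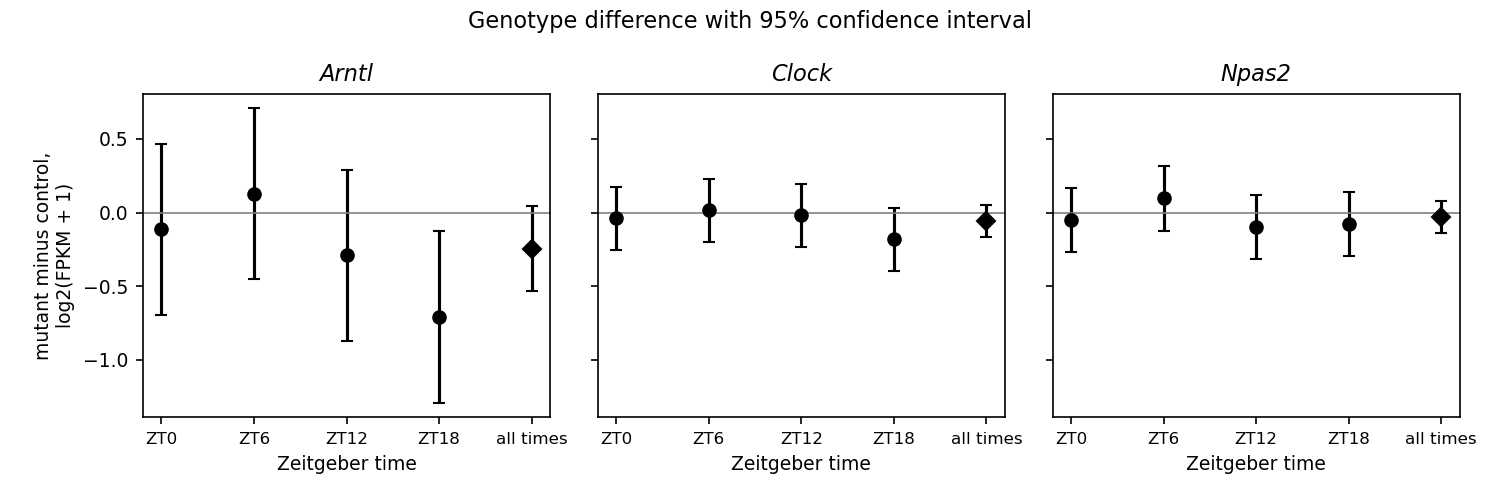
Mutant minus control on the log2(FPKM + 1) scale at each Zeitgeber time (circles) and over all times (diamonds) for each activator. Bars are 95% confidence intervals from limma over 32 libraries; all hold 0 except that of Arntl at ZT18, -0.71, which does not pass adjustment over all genes.

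The shape of the rhythm was compared next. The amplitude in mutants was 1.34 times that in controls for Arntl (permutation of genotype within time, 100000 draws, p = 0.0791, adjusted p = 0.466 over 6 values), 1.24 times for Clock (adjusted p = 0.543) and 1.18 times for Npas2 (adjusted p = 0.466). Peaks were 0.33 h later in mutants for Arntl, 0.27 h later for Clock and 0.03 h earlier for Npas2 (permutation adjusted p = 0.732, 0.732 and 0.958). The limma F test of the rhythm difference called 0% of genes (0 of 11975, with 640 at an unadjusted p under 0.05), and adjusted p was 0.886 for Arntl, 0.909 for Clock and 0.919 for Npas2. All 3 amplitudes were thus numerically larger in mutants, with no test passed. Among E-box repressors and outputs called in both genotypes, 9 of 11 also had the larger amplitude in mutants (median ratio 1.37), against 147 of 274 genes called in both genotypes over the whole table (53.6%, median ratio 1.02). Without the control ZT18 library that stands apart, the counts were 8 of 11 (median ratio 1.25) and 138 of 299 (46.2%, median ratio 0.975), and the ratio for the activators had a median of 1.16.

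The E-box genes had means that differed between genotypes in one direction at ZT6 and in the other at ZT12, without any call. At ZT6 the mean was lower in mutants for 15 of 16 (median log2 difference -0.28), against 6883 of all 11975 genes (median -0.03). Arntl was then at 16.7 ± 0.902 FPKM in mutants and 15.2 ± 1.52 FPKM in controls. At ZT12 the mean was higher in mutants for 15 of 16 (median 0.25), against 7619 of all 11975 genes (median 0.06). The whole table thus leaned in the same direction at both times. Dbp was at 5.02 ± 1.14 FPKM in mutants and 9.13 ± 2.11 FPKM in controls at ZT6 (limma adjusted p = 0.471), and at 91.4 ± 25.5 FPKM in mutants and 51.7 ± 11.8 FPKM in controls at ZT12 (adjusted p = 0.196; SD, n = 4 each).

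The control library at ZT18 with 8.84 FPKM of Arntl departed from its group in many clock genes at once. Its Clock level, 6.49 FPKM, was also the highest of its group. Dbp was at 23.5 FPKM in it and at 47.6, 84.1 and 95.8 FPKM in the other control ZT18 libraries, Per2 at 4.88 FPKM against 8.32, 8.34 and 11.6 FPKM, and Nr1d1 at 41.0 FPKM against 26.1, 27.9 and 22.6 FPKM. Each of these values lies outside the range of the other 3 libraries. The same library had the lowest summed level of 7 fibroblast genes (468 FPKM), of 8 macrophage genes (85.2 FPKM) and of 9 lymphocyte genes (1.72 FPKM) of all 32 libraries, and its relative depth of 0.831 was within the range of its group (0.808 to 0.874). Whether these values share a cause with its clock genes was not tested.

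Arntl and Clock varied together between libraries of the same genotype and time. Over deviations of each library from its group mean, Pearson's r was 0.687 between Arntl and Clock (n = 32, permutation within groups, adjusted p = 0.00033 over 3 pairs), with Spearman's rho of 0.642 (adjusted p = 0.00093). Without the 2 libraries farthest from the median of Arntl, r was 0.537 (permutation p = 0.00095, n = 30), and it was 0.517 within mutants and 0.792 within controls. For Arntl and Npas2, r was 0.181 (permutation adjusted p = 0.212) and rho 0.213 (adjusted p = 0.296), and r was 0.247 without 2 libraries (p = 0.207). For Clock and Npas2, r was 0.406 (permutation adjusted p = 0.037), but rho did not pass (0.364, adjusted p = 0.0876), and r without 2 libraries was 0.320 (p = 0.111). It was 0.486 within mutants and 0.367 within controls, and its call was lost without any 1 of 10 libraries. The deviations are small in Clock, from -0.22 to 0.29 on the log2 scale, and wider in Arntl, from -0.89 to 1.32.

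Within groups, libraries with more Arntl tended to hold less of the E-box genes, and few of these relations passed over all genes. The slope of each gene on the deviation of Arntl was tested with limma over the other 11974 genes, a comparison added after the data had been seen. Of 16 E-box genes, 14 had a negative r (median -0.52), against 65.8% of all genes (median -0.08). The test called 2 of the 16, both negative, where 0.0251% of all genes were called in that direction. It called 0 when the control ZT18 library at 8.84 FPKM of Arntl or the 2 libraries farthest in Arntl were left out. At an unadjusted limma p under 0.05 with all libraries there were 13 of 16, with the positive Nr1d1 among them, and 827 of all genes in either direction. Of these 13, permutation p was 0.0705 for Per1, 0.303 for Bhlhe40 and 0.0688 for Nr1d1. Dbp had r = -0.824 (permutation p = 0.00034, limma adjusted p = 0.00072, rho = -0.731 with permutation p = 0.00057) and r = -0.712 without 2 libraries (limma adjusted p = 0.441). Per3 had r = -0.718 (permutation p = 0.00162, limma adjusted p = 0.0426, rho = -0.662 with permutation p = 0.00393) and -0.641 without 2 libraries (limma adjusted p = 0.999). Nr1d2, which encodes REV-ERBβ, had r = -0.686 (permutation p = 0.00026, limma adjusted p = 0.135, rho = -0.681 with permutation p = 0.00218) and -0.685 without 2 libraries. Nr1d1, the earliest of the rhythmic genes after Cry1, had r = 0.384 (permutation p = 0.0688, limma adjusted p = 0.714, rho = 0.382) and 0.335 without 2 libraries. Cry1 had r = 0.247 (permutation p = 0.174, limma adjusted p = 0.912, rho = 0.216) and 0.063 without 2 libraries. For Dbp, Nr1d2 and Per3 the negative sign is that of the daily course itself, in which they are low when Arntl is high. Nr1d1 peaked at 10.6 h in mutants and 10.3 h in controls, between the peaks of Arntl and Dbp, so no such match is claimed for it. The exact harvest time of each mouse is not given, and its part was not tested.

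**Figure D5:**
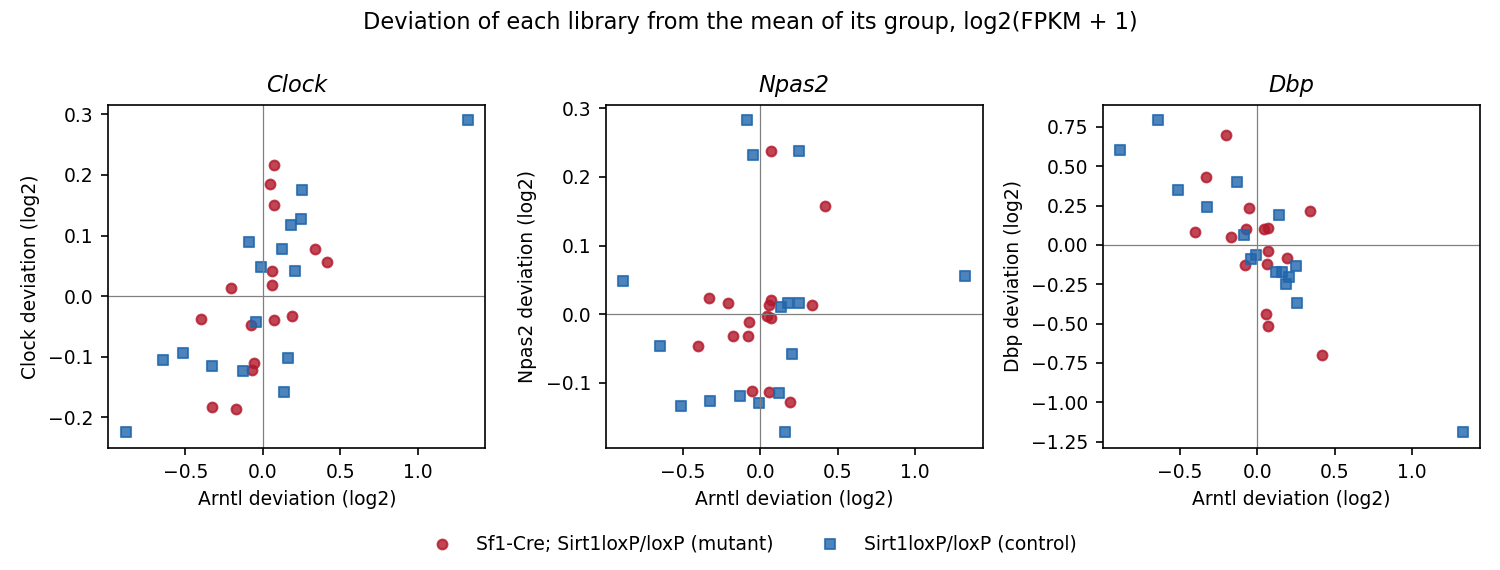
Deviation of each library from the mean of its group on the log2(FPKM + 1) scale, Arntl on the horizontal axis and Clock, Npas2 or Dbp on the vertical axis, mutants as circles and controls as squares. Arntl and Clock deviate in the same direction (r = 0.687), Arntl and Dbp in opposite directions (r = -0.824), and 1 control library of ZT18 is far to the right at 1.32.

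Across all 32 libraries, the genes whose log2(FPKM + 1) followed each activator most closely were shared in part, with Zhx2 the only gene in every list. This is a description with no test, since the libraries share one time course. Closest to Arntl were Zhx2, a zinc finger and homeobox repressor (r = 0.945), Auts2 (0.930), Clock (0.924), Fam101b (0.920) and Gtf2ird1, a transcription factor of the TFII-I family (0.917). Closest to Clock were Arntl (0.924), Auts2 (0.920), Zhx2 (0.916), Gtf2ird1 (0.901) and Ppp1r27 (0.900). Closest to Npas2 were Spon2 (0.878), Clock (0.871), the RNA-binding protein gene Igf2bp2 (0.853), Fam101b (0.842) and Zhx2 (0.834). Arntl ranked first of 11974 genes for Clock, and Npas2 ranked at place 9 for Clock and 28 for Arntl. Zhx2 averaged 11.3 FPKM in mutants and 12.2 FPKM in controls, with peaks at 4.56 h in mutants and 4.3 h in controls.

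The genes most opposite to each activator were found by the same measure, again with no test. For Arntl they were Dbp (r = -0.926), the zinc transporter gene Slc30a1 (-0.919), Per3 (-0.915), Nr1d2 (-0.895) and the kinase gene Snrk (-0.890). For Clock they were Per2 (-0.920), Per3 (-0.885), Snrk (-0.883), Hlf (-0.877) and Tspan4 (-0.867). For Npas2 they were Per2 (-0.904), Per3 (-0.869), Dbp (-0.868), Pik3ip1, which encodes a PI3 kinase inhibitor (-0.852), and Per1 (-0.828).

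Other members of the bHLH-PAS family share the domains of the activators. Arntl2, the paralogue of Arntl, stayed low, at 0.644 ± 0.251 FPKM in mutants and 0.732 ± 0.273 FPKM in controls (SD, n = 16 each), with 24 h amplitudes of 0.11 in mutants and 0.19 in controls (limma adjusted p = 0.709 and 0.232). Of 16 relatives, 10 passed the filter on low values. Of these, 1 was called rhythmic in mutants and 0 in controls (limma), against 3.92% and 5.55% of all genes. At an unadjusted p under 0.05 there were 2 of 10 in mutants and 6 of 10 in controls, against 1720 and 2327 of all 11975 genes. The calls do not set the family apart, while the unadjusted share in controls was above that of all genes. The 1 called was the coactivator gene Ncoa1, with an amplitude of 0.15 and a peak at 5.42 h in mutants (adjusted p = 0.0395), and 0.08 and 5.81 h in controls (adjusted p = 0.36). Arnt, the general partner of this family, was at 18.1 ± 1.59 FPKM in mutants and 18.7 ± 2.38 FPKM in controls, and Epas1, which encodes HIF-2α, at 44.5 ± 8.16 FPKM in mutants and 44.9 ± 5.29 FPKM in controls. No relative was called between genotypes in any comparison.

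Of the genes that act on Arntl through ROR elements, the repressors were rhythmic, while the activator gene Rora was not called. Nr1d1 and Nr1d2 were called in both genotypes. Rora had amplitudes of 0.12 in mutants and 0.15 in controls (limma adjusted p = 0.423 and 0.128), and Rorb did not pass the filter. Among 8 genes linked to ROR elements, a list that holds the 3 activators, 7 were tested and 5 called in each genotype. Of all genes, 3.92% were called in mutants and 5.55% in controls. The 3 activators are among the 5, and Npas2 was tested only through libraries of ZT6, so the choice of list sets part of this count. The other two called were Cry1 and Nfil3, which encodes a repressor that binds D-boxes, with Nfil3 peaking at 0.895 h in mutants with an amplitude of 0.81 and at 0.778 h in controls with 0.73.

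Of 26 genes for cofactors and regulators of the pair, 25 were tested, 0 were called rhythmic in mutants with limma (5 at an unadjusted p under 0.05) and 1 in controls, the acetyltransferase gene Ep300 (amplitude 0.15, peak at 0.622 h, adjusted p = 0.0202, against 0.03 and adjusted p = 0.861 in mutants). The counts called and the median amplitudes of 0.07 in mutants and 0.08 in controls were near those of all genes (3.92% called in mutants and 5.55% in controls). At an unadjusted p under 0.05 there were 1720 of all 11975 genes in mutants. Of 12 muscle genes known to depend on the activators, 6 were called in mutants and 4 in controls, against 3.92% and 5.55% of all genes, with median amplitudes of 0.46 in mutants and 0.32 in controls. Hk2, the hexokinase of muscle, Myod1, the myogenic factor, Tbc1d1, a regulator of glucose transport, and Ucp3, a mitochondrial uncoupling protein gene, were called in both. Tbc1d1 peaked at 23.1 h (SE 0.527 h) in mutants with an amplitude of 0.75 and at 23.7 h (SE 0.479 h) in controls with 0.83. Myod1 peaked at 23 h (SE 0.85 h) in mutants with 0.52 and at 1.04 h (SE 0.622 h) in controls with 0.70. The rhythm difference of Myod1 was not called (limma adjusted p = 0.88). Tcap, which encodes telethonin, had 0.61 in mutants (adjusted p = 0.000169) and 0.31 in controls (adjusted p = 0.0659), and Pdk4 had 0.94 in mutants (adjusted p = 0.0341) and 0.71 in controls (adjusted p = 0.126), with the rhythm difference called for neither.

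No 12 h component of an activator passed in the fit to all libraries. That of Npas2, positive where ZT0 and ZT12 exceed ZT6 and ZT18, was -0.16 in mutants (SE 0.0376, limma adjusted p = 0.087) and -0.12 in controls (SE 0.0376, adjusted p = 0.162), so neither passed. In mutants it was -0.18 and passed without the ZT0 library numbered 3, and -0.16 and passed without the ZT12 library of that number (limma adjusted p = 0.0122 and 0.0236). In those fits 1258 and 864 genes were called in mutants. Without a filter on low values the component of Npas2 did not pass with all libraries (limma adjusted p = 0.107 in mutants and 0.154 in controls). A high ZT6, through which Npas2 passed the filter, gives a negative component. In this comparison 0% of genes were called in mutants (0 with limma, 2577 at an unadjusted p under 0.05) and 0.0668% in controls. Arntl had 0.09 in mutants and 0.04 in controls (adjusted p = 0.646 and 0.866), and Clock 0.01 in mutants and -0.01 in controls (adjusted p = 0.857 and 0.897).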

How the data were processed

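RNA of 32 gastrocnemius samples was measured by stranded mRNA sequencing. The authors deposited FPKM values, 1 per gene and library, on mm10 per the submitters' processing notes, and the aligner and quantifier are not given in the sources used here. Absolute depth is unknown: among 878 genes with low values, 58% of values lay within 0.1 of a whole number of steps (20% with no steps). Columns name genotype and time, which set the 8 groups of 4, and a library number that matches no label. The authors' table of rhythm statistics was not used. Genes with at least 1 FPKM in at least 4 libraries (11975 of 16634) were fitted on log2(FPKM + 1), which understates changes of low genes, with limma 3.58.1 (R 4.3.3, 1 mean per group, trended prior) and Benjamini-Hochberg adjustment, calls at an adjusted p under 0.05. The lists hold 16 E-box repressors and outputs, 16 bHLH-PAS relatives, 8 genes linked to ROR elements, 26 cofactors, 12 muscle genes and 7 sets of cell type markers. Of the listed genes, Rack1, Lck and Pdgfra are not analysed here. The members and lists were chosen with earlier results of these data known. The genes named are the members, the standard clock genes, listed genes that passed and the 5 most and 5 least alike per member. Alternatives were a pseudocount of 0.1, no filter, a mean of at least 5 FPKM, quantile and median ratio scaling, array weights, only the groups compared, and leaving out each library. The fit was tested on simulated data. Nothing says whether libraries of a group came from separate animals beyond their numbers, so p-values measure the spread between these samples.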

Additional observations from a re-analysis of the deposited data

Results flagged for a closer look

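Within the mutants at ZT18, 1 library stood apart in Arntl, at 1.13 FPKM against 1.48, 1.51 and 1.52 FPKM in the other 3. The gap to its nearest neighbour was 0.887 of the range of the group, above Dixon's critical value for 4 samples. It was the 1 flag among 24 groups of 4 libraries (3 genes, 8 groups), and chance flags about 5% of groups. The same library had the lowest Clock and Npas2 levels of its group, 3.74 and 0.0360 FPKM. The control ZT18 group, with 1 library at 8.84 FPKM of Arntl, was not flagged (gap of 0.689 of its range).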

How the results depend on the processing

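The 24 h rhythm of Arntl and Clock passed in mutants and in controls under every alternative and without any 1 library. That of Npas2 passed in both genotypes in the fit without a filter on low values. Its passes in the other fits are no check of its rhythm, since it met the filter only through libraries of ZT6. No genotype difference of an activator passed under any alternative or without any 1 library. Npas2 has no value at a mean of at least 5 FPKM, and without a filter on low values no result crossed its threshold or changed direction. No paired analysis was possible because the library numbers in the table's columns match no label. Absolute depth is unknown, so counting error cannot be set apart from the spread between libraries for a gene as low as Npas2. The causes of the changes below were not tested.

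Counts of genes called depended on the settings. At a mean of at least 5 FPKM, 1 gene was called between genotypes over all times and 0 at each single time (limma), 287 were rhythmic in mutants and 390 in controls, 7 E-box repressors and outputs were rhythmic in controls, and 2 genes had a 12 h component in controls. Array weights gave 1 gene at ZT0, 232 at ZT6 and 10 at ZT12, 42 for genotype by time, 752 rhythmic in mutants and 2233 in controls, and 397 with a 12 h component in controls. That of Npas2 in controls then passed, at -0.131 (adjusted p = 0.0311), in a fit where Npas2 was tested only through libraries of ZT6. Quantile normalisation gave 0 genes at ZT6, 0 at ZT18 and 4 with a 12 h component in controls, median ratio scaling gave 3 of the last kind, and a pseudocount of 0.1 gave 4. When each fit held no other groups than those compared, 0 genes were called at ZT12, 1 at ZT18, 249 as rhythmic in mutants, 1221 as rhythmic in controls and 89 with a 12 h component in controls. The correlation of Clock with Npas2 did not pass with a pseudocount of 0.1 (r = 0.3929, permutation adjusted p = 0.067).

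Values near 0 changed sign. These were the difference of Npas2 at ZT0 (0.04513) and ZT6 (-0.0009234) under quantile normalisation and that of Clock at ZT6 (-0.004851) under array weights. Under quantile and median ratio scaling, the 12 h component of Clock in mutants was -0.001621 and -0.004344 and its peak shift -0.06206 and -0.04627 h.

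Leaving out 1 library at a time gave differences at ZT0 of -0.2513 to 0.02134 for Arntl, -0.07713 to 0.003972 for Clock and -0.1059 to 0.04539 for Npas2, and of -0.0566 to 0.05619 at ZT6 and -0.07121 to 0.04262 at ZT12 for Clock. The 12 h component ran from -0.02934 to 0.1549 for Arntl and from -0.03165 to 0.01124 for Clock in controls, and from -0.001095 to 0.03252 for Clock and from -0.1764 to -0.1436 for Npas2 in mutants. The last of these passed in 2 of these fits, in which Npas2 was tested only through libraries of ZT6. The peak shift of Npas2 ran from -0.3922 to 0.2677 h. The correlation of Clock with Npas2 ran from 0.3074 to 0.475 and did not pass in 10 fits. Genes called numbered 1 to 2 at ZT6, 2 to 447 at ZT12, 0 to 3 at ZT18, 0 to 93 for genotype by time, 0 to 1258 for the 12 h component in mutants and 1 to 21 for that in controls. The widest changes followed the loss of 1 of 3 mutant libraries. Without ZT12 library 3 the counts were 447 at ZT12, 33 for genotype by time and 864 for the 12 h component in mutants, without ZT0 library 3 they were 96, 93 and 1258, and without ZT0 library 2 they were 262 at ZT12, 21 for genotype by time and 21 for the 12 h component in controls.

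The slopes on Arntl within groups, chosen with their alternatives after the data had been seen, called 2 E-box genes, 1 with a pseudocount of 0.1, 1 under quantile normalisation and 0 to 3 with 1 library left out. Over all genes they called 6, 10 under median ratio scaling and 0 to 8 with 1 library left out. Both counts were 0 without control ZT18 library 0, which is the one with 8.84 FPKM of Arntl. The r of Dbp lay between -0.8655 and -0.6918, and its call was lost without that library (limma adjusted p = 0.308).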
